A study of Nicotiana tabacum with 54 samples.

Results

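Root and leaf transcriptomes of tobacco (Nicotiana tabacum) were compared over 18 root and 18 leaf libraries, 36 of the 54 libraries of a study that also sequenced stalk. The libraries came from 6 materials, labelled Hongda, HxB, Basma, Va116, VxG88 and GDH88, with 3 libraries for each material and tissue. The labels HxB and VxG88 have the form of crosses, read here as Hongda with Basma and Va116 with GDH88, but no label states the parents. Crosses would not be independent of their parents, which counts over 6 materials do not take into account. All plants had been topped, which means that the flower head had been removed, no untopped plants were among the samples, and 3 plants were sampled for each replicate. The members were all expressed genes: of the 69500 genes in the tables, 41598 had at least 1 FPKM (fragments per kilobase of transcript, scaled to the fragments of the library) in at least 3 of the 36 libraries, and 41542 of these are described after 56 glutathione transferase genes were set aside.

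Leaves carry out photosynthesis, and a few proteins of carbon fixation and light harvesting are made there in very large amounts. Roots take up water and minerals, and in tobacco they are the site of nicotine synthesis, which topping is known to increase before the alkaloid moves to the leaf. Tobacco is an allotetraploid, so most genes have a close copy from the other parental genome, and the FPKM of near-identical copies depend on how shared reads were divided. RSEM, which is among the tools named, estimates this division, but the settings used are not stated.

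The gene identifiers of the Nitab4.5 series carry no names in the tables, and 0 of the 69500 matched the RefSeq gene table for tobacco. The tissue labels could therefore not be checked against marker genes, no function is attached to any gene, and identifiers are printed for 4 genes only. The values themselves kept the tissues apart. On log2(FPKM + 1) over the genes kept, each library correlated better with every library of its own tissue (lowest Pearson's r 0.798 in root and 0.830 in leaf) than with any library of the other tissue (highest r 0.699), over genes that share the same library.

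The values of a library summed to between 773020 and 823454 FPKM, the depth in reads is unknown, and low values were not in whole-read steps. In 3 root libraries, those of Hongda, HxB and Basma with column number 1, 35845 to 37004 genes reached 1 FPKM. In the other 15 it was 30198 to 34311 genes. Some results below are also given without these 3 libraries. The counts over 2-fold, genes without overlap, restricted lists, agreement over materials and genes that varied among materials are not. Over genes that differed among materials in the other tissue, the libraries labelled Root Basma 1, Root GDH88 2 and Leaf VxG88 2 fitted another material better than their own, and the other 33 fitted their label. Root Basma 1 and Root HxB 1 were also the closest of all root pairs, with 5.17% of summed FPKM different. They were kept as separate samples, since without read counts a repeat of 1 library could not be tested. The column numbers 1 to 3 are not tied to the replicate letters of the labels, but leaf libraries of 1 number deviated together. Of 35971 genes tested in leaf, 8656 differed among the 3 numbers (limma F test, adjusted p under 0.05), against 939 of 38399 in root, and comparisons within each number are given below.

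Tissue took the largest share of the difference among the libraries, with 65.5% of the sum of squares of log2(FPKM + 1) over the genes kept, against 5.91% for material, 3.70% for the combination of tissue and material, and 24.9% for libraries within their groups. The first principal component held 66.6% of the variance, with all root libraries on one side and all leaf libraries on the other. The second component held 7.83% and spread the libraries within each tissue, with the 3 root libraries named above at its upper end.

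**Figure D1:**
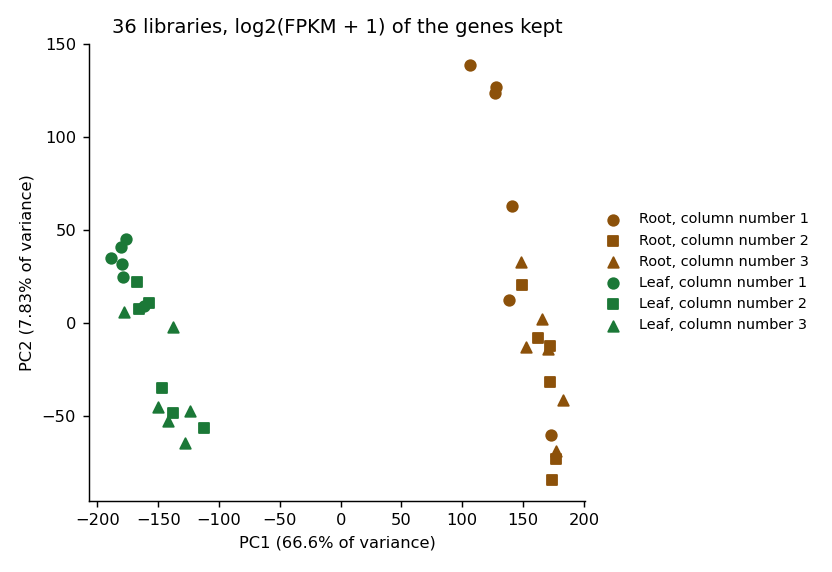
Principal components of log2(FPKM + 1) over the genes kept, with 1 point for each of 18 root (brown) and 18 leaf (green) libraries and the marker shape giving the column number. Root lies at 106 to 183 on the first component (66.6% of variance) and leaf at -189 to -113, and 3 root libraries of number 1 lie above 120 on the second (7.83%).

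Roots listed more genes above 0 than leaves, and the pool of leaf transcripts was held to a larger degree by a few very abundant genes. Per root library, 43382 to 45596 genes (median 44311) were above 0 FPKM, and per leaf library 42199 to 44103 (median 42632). The ranges overlapped from 43382 to 44103, and the mean difference was 1642 genes, with root above leaf in 6 of 6 materials. The test exchanged the tissue labels within each material (two-sided permutation test, 100000 resamples), and p was 1e-05, its smallest possible value, or 1.6e-05 after Benjamini-Hochberg adjustment for the 8 measures compared. At 1 FPKM or more the difference was smaller than the spread of root, with 33461 ± 1690 genes in root and 32861 ± 431 in leaf (SD, n = 18 libraries, adjusted p = 0.246 from the permutation test). Without the 3 root libraries that stand apart this difference shrank from 600 to 31.1 genes. The number of genes above 0 also depends on read depth, which is unknown, so by itself it does not show a larger transcriptome in root.

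At the upper end of the range the order of the tissues changed with the level. From 1387 to 1622 genes (median 1558.5) reached 100 FPKM in a root library, and from 1197 to 1389 (median 1296) in a leaf library. Root was therefore ahead at this level in 6 of 6 materials, by 238 genes in the mean (adjusted p = 1.6e-05, permutation test). At 1000 FPKM leaf was ahead in 6 of 6 materials, with 25 to 52 genes (median 36.5) against 9 to 39 (median 25.5) in root (adjusted p = 1.6e-05, permutation test). The mean difference (root minus leaf) of -13.3 genes was -7.25 without column number 1 (adjusted p = 0.0072, permutation test). Roots thus had more genes at 100 FPKM and leaves more at 1000 FPKM.

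The 10 most abundant genes of a library held 4.03% to 7.39% of the summed FPKM in leaf (median 5.21%) and 1.51% to 4.20% in root (median 2.80%). The difference of the means was 2.34 percentage points, larger than the spread between libraries (SD 0.736 in root and 0.829 in leaf, n = 18), and leaf was above root in 6 of 6 materials (adjusted p = 1.6e-05, permutation test). The most abundant gene alone held 1.17% ± 0.420 in leaf and 0.497% ± 0.156 in root. For the 100 most abundant genes the share was 15.8% ± 1.48 in leaf and 11.7% ± 1.68 in root (adjusted p = 1.6e-05, permutation test). These shares are of FPKM, which are per length, and not of reads.

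Further down the ranks the tissues lay closer together. The 1000 most abundant genes held 40.7% ± 2.17 in leaf and 40.3% ± 3.02 in root (SD, n = 18), a difference smaller than the spread (adjusted p = 0.711, permutation test). Without column number 1 the share was 1.85 percentage points higher in root (adjusted p = 0.0202, permutation test), so this result depends on the libraries used. It took 1789 ± 222 genes in leaf and 1708 ± 321 in root to reach 50% of the summed FPKM (adjusted p = 0.468, permutation test). The number of genes to 50% rests on the 3 root libraries that stand apart, in which 2172 to 2590 genes were needed. Without them root needed 206 genes fewer than leaf (adjusted p = 0.00692, permutation test), while the share of the 10 most abundant genes was still 2.11 percentage points lower in root (adjusted p = 2e-05).

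**Figure D2:**
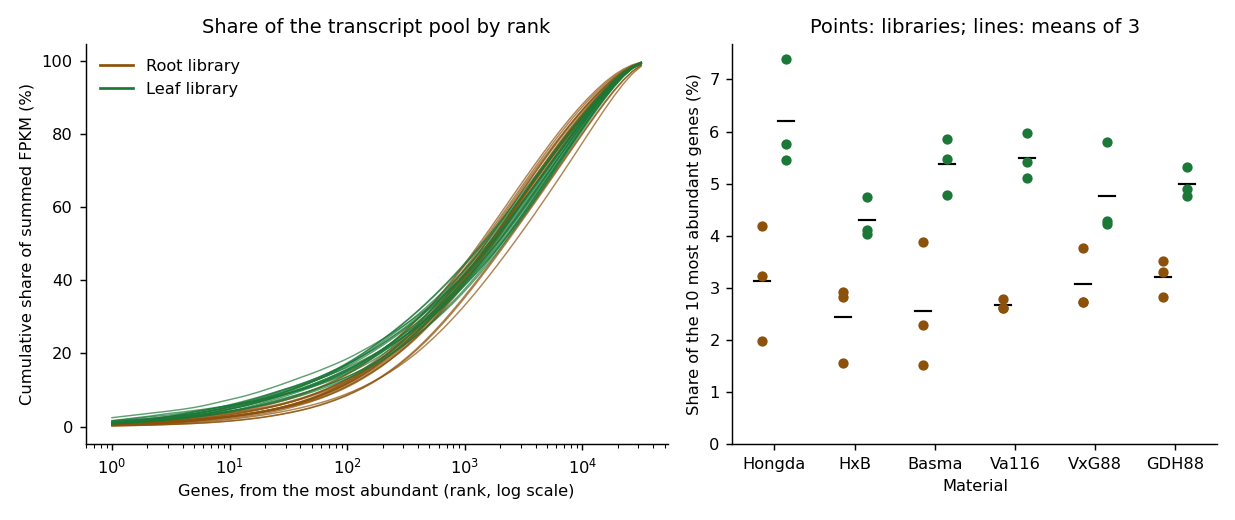
Left, cumulative share of summed FPKM (%) against the rank of genes by abundance (log scale), with 1 line for each root (brown) and leaf (green) library; right, share of the 10 most abundant genes (%) in each library by material, with bars at the means of 3 libraries. Leaf points lie between 4.03% and 7.39% and root points between 1.51% and 4.20%, and the lines of both tissues meet near rank 1000, where they hold about 40.7% and 40.3% in the mean.

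Most of the top genes of leaf were low in root, whereas the top genes of root were abundant in leaf as well. Of the 10 genes with the highest leaf mean, 9 were called higher in leaf, 7 had no overlap between the 18 leaf and 18 root libraries, and 6 ranked below 1000th place in root. Of the 10 genes with the highest root mean, 7 were called higher in root, 1 had no overlap with leaf, and 0 ranked below 1000th place in leaf. The lists had 2 genes in common, 20% of each. Among the first 100 genes of each tissue 22% were shared, and among the first 1000 it was 43.8%. Chosen by their means in these libraries, such genes describe the upper end of each tissue, and the calls among them come from the fit over all genes given below.

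The gene with the highest leaf mean was at 4033 to 12857 FPKM in leaf (median 7396) and at 346 to 5613 in root (median 1655), where it ranked at 5. In stalk its mean was 361 FPKM, below the means of both other tissues. The second gene of the leaf list was at 1724 to 20210 FPKM in leaf (median 4528), and at 2.18 to 2650 in root (median 35.2), so that single root libraries held large amounts of it. In root the gene with the highest mean was at 739 to 4976 FPKM (median 3105) and in leaf at 415 to 3872 (median 1375), a log2 fold change of 1.07 ± 0.26 (SE). The gene in 7th place was the only one of the 10 root genes whose tissues did not overlap, at 640 to 2280 FPKM in root and 25.2 to 429 in leaf.

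Most expressed genes differed between root and leaf, and over all 36 libraries the numbers each way were nearly equal. With limma on log2(FPKM + 1), with tissue and material in the model and Benjamini-Hochberg adjustment over the 41598 genes kept, 15237 of the 41542 genes described were higher in root and 15466 higher in leaf at an adjusted p under 0.05. Over all genes kept, 36.7% were called higher in root, 37.2% higher in leaf and 73.9% in either direction. The balance depends on the genes and libraries used, with 10999 higher in root and 13566 in leaf among genes that reached 1 FPKM in at least 18 libraries, 14125 and 17306 without the 3 root libraries that stand apart, and 12636 and 17148 without column number 1. The median size of the log2 fold change was 0.64 and its median standard error 0.14, and the median of the signed differences (root minus leaf) was -0.02, close to 0. The libraries summed to nearly the same total in both tissues (means of 806318 FPKM in root and 806092 in leaf). Gains of some genes are therefore offset by losses of others, and the balance is one of relative levels. How far the scaling sets it was not tested. Because FPKM are relative to the library, a higher level may reflect more cells of a type or more RNA per cell, which cannot be told apart in bulk tissue.

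The sizes spread widely around this center. The middle 90% of genes, an interval with 5% on each side, had a log2 fold change between -2.57 and 2.32, and the extremes were -11.36 and 8.92. Whether large differences were more often toward leaf depends on the pseudocount. With a pseudocount of 1, a log2 fold change of at least 1 was reached by 7160 genes called higher in root and 6981 called higher in leaf, of at least 3 by 1153 and 1557, and of at least 5 by 211 and 389. Tested against a bound of 2-fold with limma's treat, 4392 genes were higher in root and 4806 higher in leaf (10.6% and 11.6% of all genes kept). With a pseudocount of 0.1 this order turned, with 7404 higher in root and 6517 in leaf, and it was 7771 and 6793 at 0.01. On the log2(FPKM + 1) scale the differences of weakly expressed genes come out too small.

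**Figure D3:**
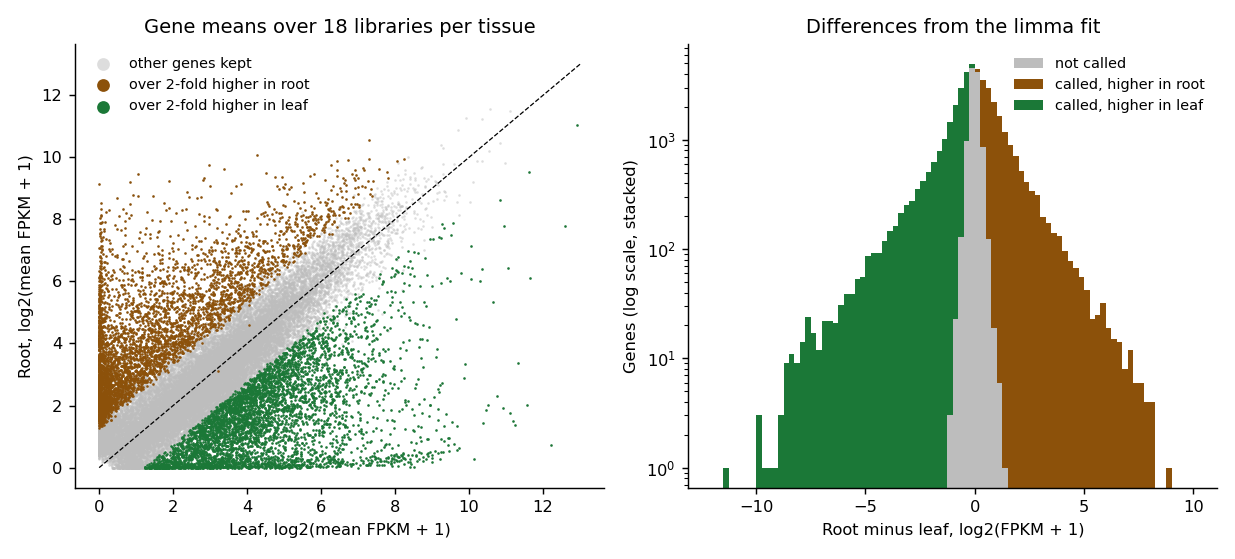
Left, mean level of each gene in root against leaf on log2(mean FPKM + 1), with genes more than 2-fold higher in root (4392, brown) or leaf (4806, green) by limma's treat; right, histogram of the log2 difference (root minus leaf), stacked by call, with the number of genes on a log scale. The differences run from -11.36 to 8.92, and the side of leaf reaches farther out.

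The direction of the calls varied with the level of the gene. Among the 5052 genes with a mean under 1 FPKM over the 36 libraries, 50.3% were called higher in root and 24.5% higher in leaf. From 1 to 10 FPKM (21499 genes) the shares were 31.8% for root and 39.6% for leaf, and from 10 to 100 FPKM (13550 genes) 37.4% and 39.1%. From 100 to 1000 FPKM (1418 genes) root led again, with 55.3% against 28.9%. Of the 23 genes with a mean of at least 1000 FPKM, 4 were called higher in root and 17 higher in leaf. The lowest class depends on the filter, which a gene can pass through 3 libraries alone. Without the 3 root libraries that stand apart it held 4712 genes, 46.8% of them called higher in root and 30.8% higher in leaf, and from 1 to 10 FPKM the shares were 29.2% and 46.4%. The median size of the log2 fold change was 0.60 in each of the lower classes, under 1 FPKM and from 1 to 10, and it rose to 0.72, 1.18 and 2.23 in the classes above.

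A part of the genes was bound to small differences. For 8733 genes (21.0%) the 95% confidence interval of the log2 fold change from the fit lay within -0.5 to 0.5, and 1572 of these were nevertheless called. A further 3678 genes were not called, yet had an interval that reached beyond 0.5, so that for them neither a difference nor its absence can be stated. Of the 8733, 2788 had a mean of at least 10 FPKM in both tissues.

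The libraries of the 2 tissues did not overlap at all for 3094 genes with root above leaf and 3974 genes with leaf above root (7.47% and 9.58% of all genes kept). For these, the lowest of 18 libraries of one tissue was above the highest of 18 of the other. Within the column numbers the balance of the directions differed. The filter was applied anew to the libraries of each number, so the genes tested were not the same. In number 1 alone (6 libraries of each tissue) 13532 genes were called higher in root and 8581 higher in leaf, in number 2 alone 9553 and 14075, and in number 3 alone 10186 and 12743. The median of all log2 fold changes moved with them, at 0.21, -0.20 and -0.12. Of the 30703 genes called over all libraries, 28662 (93.4%) had the same direction at every number. Whether the number stands for a technical batch was not tested.

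Among the named genes, chosen for large differences without overlap, Nitab4.5_0000477g0200 was at 203 to 896 FPKM in root (median 381) and at 0 to 2.5 FPKM in leaf (median 0.145). Every root library was far above every leaf library, and stalk lay between, with a mean of 68.5 FPKM. Its log2 fold change was 8.21 ± 0.17 (SE; limma, adjusted p = 2.55e-29), and between 7.62 and 9.04 in the single materials. Nitab4.5_0000032g0470 was at 66.0 to 1606 FPKM in root (median 603) and 0.08 to 3.16 in leaf (median 0.75). Its root libraries differed from each other by more than those of the first gene, and the log2 fold change was 8.19 ± 0.30 (SE; limma, adjusted p = 4.58e-22).

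On the side of leaf, Nitab4.5_0002207g0050 was at 230 to 8948 FPKM in leaf (median 5246), the third highest leaf mean of all genes, and at 0 to 4.56 in root, where 12 of 18 libraries are listed at 0. The log2 fold change of -11.36 ± 0.34 (SE; limma, adjusted p = 9.39e-25) was the lowest of all genes kept, and its size depends on the pseudocount, with -13.84 at a pseudocount of 0.1. Nitab4.5_0001382g0020 was at 659 to 5290 FPKM in leaf (median 2337) and at 0 to 5.18 in root (median 1.18), with a log2 fold change of -9.85 ± 0.23 (SE; limma, adjusted p = 9.87e-28). In stalk both were low, with means of 12.6 and 23.4 FPKM, nearer to root than to leaf. All 4 named genes had the same direction, with no overlap between 3 root and 3 leaf libraries, in 6 of 6 materials. The rule that chose them required this, so it is no separate sign of agreement.

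Together, the differences moved a large part of the transcript pool. Between the mean root and the mean leaf composition, 41.9% of the summed FPKM was allotted to other genes. For single pairs of libraries this share was 36.4% to 57.3% between root and leaf (median 46.4%), 5.17% to 38.6% between root libraries (median 25.02%) and 10.1% to 34.4% between leaf libraries (median 22.1%). The most unlike root pair thus reached past the most alike root and leaf pair. The libraries share pairs, so these ranges are descriptions.

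Genes called higher in root held 53.0% to 68.7% of the summed FPKM of root libraries (median 64.6%) and a median of 23.5% in leaf. Genes called higher in leaf held 45.2% to 64.7% in leaf (median 56.5%) and a median of 15.5% in root. The genes not called held about the same share in both tissues, with medians of 19.5% and 19.5%. With the bound of 2-fold, the root genes held a median of 28.9% in root and 3.65% in leaf, and the leaf genes 34.8% in leaf and 3.17% in root. The calls and the shares come from the same values. The gain of leaf over root was borne by fewer genes, with 445 genes making up 50% of it and 10 genes 10.2%, whereas 803 genes made up 50% of the gain of root over leaf and the first 10 only 3.22%.

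Genes restricted to one tissue were few. A gene was counted as root-restricted when it had at least 1 FPKM in 18 of 18 root libraries and less than 0.1 FPKM in 18 of 18 leaf libraries, and as leaf-restricted in the reverse case. By this rule on levels, with no test, 124 genes were root-restricted and 127 leaf-restricted. Of these, 36 and 49 are listed at 0 in every library of the other tissue, which without the depth says nothing of how few transcripts there were. Just inside the rule, 9 genes of each list had their lowest library of the own tissue between 1 and 1.1 FPKM. Just outside, 12 more genes would be root-restricted and 6 more leaf-restricted at 0.9 FPKM, and 52 and 46 more with a limit of 0.15 FPKM in the other tissue.

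Root-restricted genes reached higher levels than leaf-restricted ones. The mean in the own tissue ran from 2.44 to 564 FPKM with a median of 14.7 for the root list, and from 1.52 to 127 FPKM with a median of 7.97 for the leaf list. A mean of at least 100 FPKM was found for 8 root-restricted genes and 1 leaf-restricted gene. The root list held 0.280% to 0.921% of the summed FPKM of root libraries (median 0.514%), and the leaf list 0.145% to 0.288% of leaf libraries (median 0.213%), so the most abundant genes of leaf were not among its restricted genes. Within the own tissue, the highest library was a median of 11.9 times the lowest for root-restricted genes and 5.34 times for leaf-restricted genes. Since the rule sets a minimum for every library, a gene that varies more needs a higher mean to pass. How far this raises the means of the root list was not tested.

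Stalk, which the rule did not use, held some of these genes too. A stalk mean of at least 1 FPKM was found for 34 of the 124 root-restricted genes (27.4%) and 14 of the 127 leaf-restricted genes (11.0%). Conversely, 34 root-restricted genes (27.4%) and 55 leaf-restricted genes (43.3%) were below 0.1 FPKM in 18 of 18 stalk libraries as well. The most abundant root-restricted gene was at 173 to 1709 FPKM in root (median 512) and at 0 to 2.14 in stalk (median 0). By contrast, the most abundant leaf-restricted gene was at 21.8 to 236 FPKM in leaf (median 146) and at 22.9 to 199 in stalk (median 90.2), so that leaf and stalk overlapped. The stalk mean was above the own mean for 5 root-restricted and 2 leaf-restricted genes.

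**Figure D4:**
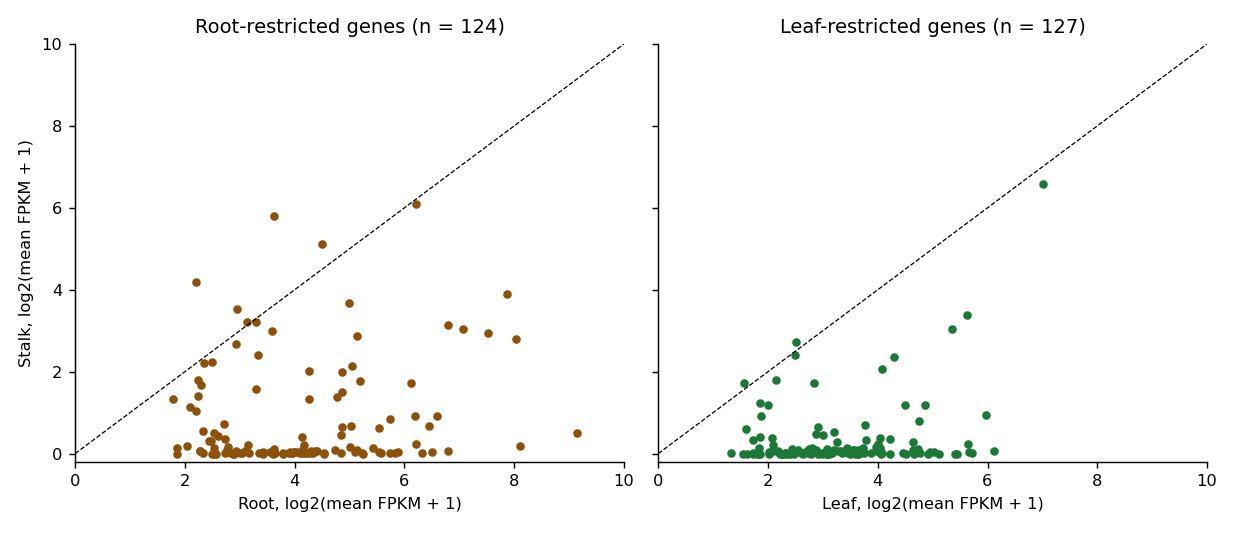
Mean level in stalk against the mean level in the own tissue, both as log2(mean FPKM + 1), for 124 root-restricted genes (left) and 127 leaf-restricted genes (right), with 1 point for each gene and a dashed line of equal levels. Most points lie near 0 in stalk, and 5 root-restricted and 2 leaf-restricted genes lie above the line.

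Applied within single materials, the rule found more genes, of which few were common to all. With 3 libraries of each tissue, 637 (Va116) to 969 (HxB) genes were root-restricted in a material and 425 (Hongda) to 624 (GDH88) leaf-restricted. The root list was the longer one in all 6 materials, unlike the nearly equal counts of 124 and 127 by the rule over all libraries. In at least 1 material 1879 genes were root-restricted, and 124 of them (6.60%) were so in all 6. For leaf the numbers were 1116 and 127 (11.4%). The rule on single materials rests on fewer libraries, so part of this difference lies in its construction.

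The wider set of genes with more than 2-fold differences was placed between root and leaf by the level in stalk, on a scale that is 0 at the mean of the tissue where the gene was low and 1 at the mean where it was high. Genes higher in root had a median position of 0.40 in stalk, and 30.6% of the 4392 lay above 0.75, near root, with 20.04% above root itself. Genes higher in leaf had a median position of 0.20, and 7.34% of the 4806 lay above 0.75, near leaf. Below 0.25, near the tissue where the gene was low, were 42.0% of the root genes and 57.2% of the leaf genes. The difference between the lists was not tested.

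The direction of a difference was mostly the same in the 6 materials. Of the 30703 called genes, 27305 (88.9%) had 6 of 6 differences of the material means in the direction of the fit, 3023 had 5, and 334 had 4. The share was 88.2% for genes higher in root and 89.7% for genes higher in leaf. Of the genes with more than 2-fold differences, 9177 of 9198 (99.8%) agreed in 6 of 6 materials, against 784 of the 10839 genes that were not called (7.23%). The called genes were chosen by the same values, so these shares are a description. A stricter view asks that all 3 root libraries of a material lie on one side of its 3 leaf libraries, which held in 6 of 6 materials for 9598 called genes (31.3%) and in 0 materials for 1467 (4.78%).

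**Figure D5:**
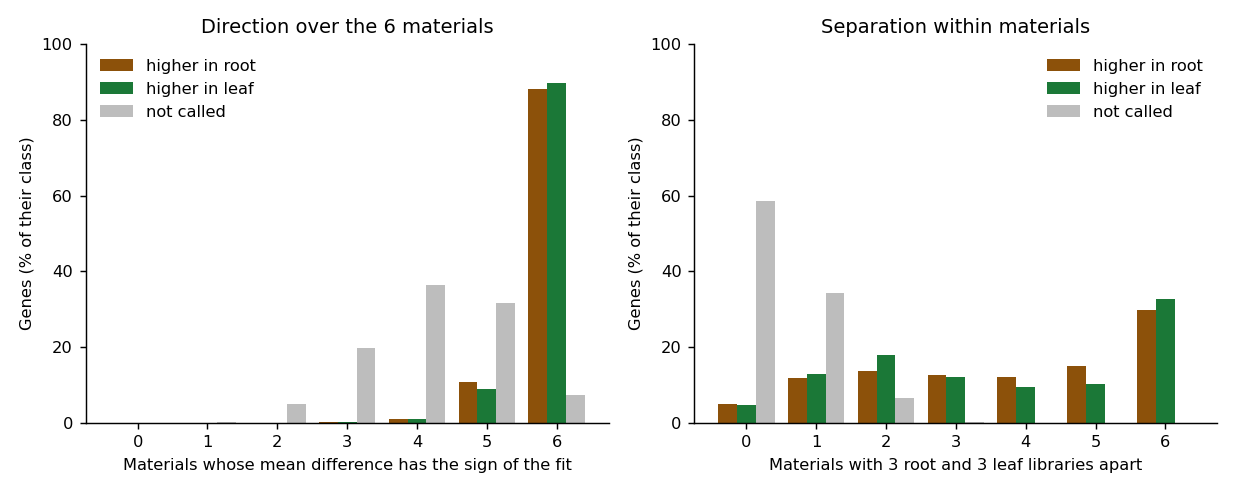
Share of genes (%) by the number of materials, from 0 to 6, whose mean difference has the direction of the fit (left) and by the number of materials in which 3 root and 3 leaf libraries do not overlap (right), for genes called higher in root (brown), higher in leaf (green) and not called (grey). At 6 materials the bars on the left reach 88.2%, 89.7% and 7.23%.

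Across genes, the root and leaf differences of any pair of materials correlated with r between 0.892 and 0.974 (median 0.941 over 15 pairs, 41542 genes that are not independent of each other). The materials were not alike in balance. In VxG88 the median difference was -0.23 on the log2 scale. There, 14909 of the 41542 genes had all leaf libraries above all root libraries, with 9236 the other way. In Hongda the order was reversed, with 7850 genes with leaf above and 9987 with root above, and a median difference of 0.01. It was also reversed in HxB (9402 and 10323), Basma (8116 and 10101) and Va116 (8736 and 9733), but not in GDH88 (12400 and 10856). All these counts are out of 41542 genes, and with so few libraries in a material some genes lie apart without a tissue difference. Hongda, HxB and Basma each hold 1 of the 3 root libraries that stand apart, and Leaf VxG88 2 went against its label. The share of called genes with a mean difference against the fit was lowest in HxB (0.599%) and highest in VxG88 (2.87%).

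Few genes were called for a difference that itself varied among materials. The limma F test of the combination of tissue and material called 81 genes (0.195% of all genes kept) at an adjusted p under 0.05. With this test 1511 genes (3.64%) had an unadjusted p under 0.05. In simulated data with 1 material changed, it found 4% of genes given a log2 change of 1 and 48.5% at 2. Genes that were not called may therefore still have varied. Of the 81, 78 were also called in the mean over materials, 51 had 1 direction in 6 of 6 materials, and 2 differed by more than 2-fold in opposite directions in a pair of materials. The 6 differences of such a gene spanned a median range of 2.37 on the log2 scale, against 0.78 over all genes. These were mostly genes of low level, with medians of 0.162 FPKM in root and 2.10 in leaf, and 23 of them were under 0.1 FPKM in all libraries of at least 1 material.

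The material farthest from the mean of the other 5 was Hongda for 30 of the 81 genes, GDH88 for 21, Basma for 12, HxB for 10, Va116 for 7 and VxG88 for 1. The gene with the smallest adjusted p (7.94e-07, limma) was at 0.22 to 0.83 FPKM in the 3 leaf libraries of Hongda and at 142 to 612 in the 15 leaf libraries of the other materials. In the 18 root libraries it was at 0 to 3.63 FPKM. This gene was therefore a leaf gene in 5 materials and at a low level in both tissues of Hongda. Without the 3 libraries that went against their label, 118 genes were called in place of 81, and without all libraries of 1 column number 3 to 25 were.

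Libraries of a group differed more from each other in root than in leaf. The median SD of log2(FPKM + 1) over 3 libraries was 0.290 (VxG88) to 0.499 (Hongda) in root and 0.261 (GDH88) to 0.329 (Va116) in leaf. Root was above leaf in 6 of 6 materials, by 0.0924 in the mean (exact sign-flip permutation test over materials, two-sided, p = 0.03125, the smallest it can give). The test takes the materials as independent of each other, which crosses among them would not be. The difference was at least 0.128 in Hongda, HxB and Basma, the materials with the 3 root libraries that stand apart, and at most 0.0392 in the others. Without those 3 libraries it was -0.0242 (exact p = 0.562). In these materials the SD then came from fewer root than leaf libraries, and an SD over fewer values tends to be smaller. Without column number 1 in both tissues, which keeps the numbers equal, the difference was -0.00729. The larger spread of root thus depends on the libraries of that number.

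Genes that are neighbours by identifier went in the same direction slightly more often than the frequencies of the calls give. The identifiers carry a scaffold number and a gene number, which was used as an order and not as a mapped position. Among 23044 pairs with adjacent numbers on 1 scaffold, both genes were called in 12721, and 52.9% of those had the same direction, where the frequencies of both directions give 50.01%. With more than 2-fold differences, both genes were called in 1269 pairs and 60.6% had the same direction, against 50.2%. The log2 fold changes of neighbours correlated with r = 0.0692 across pairs, which is weak. Runs of at least 3 such neighbours numbered 40 for root, the longest of 7 genes, and 34 for leaf, the longest of 5 genes. Adjacent genes can be tandem copies that share reads, and their part in this was not tested.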

How the data were processed

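Total RNA was sequenced for the authors by a company (paired-end, Illumina), and the processing notes name HISAT2, StringTie and RSEM. The sources used here state no version, option or genome build. The deposited tables, 1 for each tissue, hold FPKM for 69500 genes, with the unit taken from the authors' figure legend. The even sums would also fit TPM with features left out. Read depth is unknown, and of 25390 ratios of low values 18.7% lay within 0.1 of a whole number (20% by even spread), so no counts were recovered and precision comes from the libraries alone.

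Columns were assigned to groups by tissue and material in their names. Genes that reached 1 FPKM in 3 or more of the 36 libraries were fitted as log2(FPKM + 1) with limma 3.58.1 (R 4.3.3), with trend, tissue and material, two-sided, with Benjamini-Hochberg adjustment. All 59 glutathione transferase genes of the authors' list stayed in the fit and in sums, and were left out of the counts described. The interaction was tested with an F test. Sums, permutation tests and plots used Python 3.11.15 with numpy 2.4.6, pandas 2.3.3, scipy 1.17.1 and matplotlib 3.10.9. In simulated data for root against leaf (41598 genes), 86.5% of genes given a log2 change of 1 were found and 39.5% at 0.5. At each size only 200 genes were changed, far fewer than were called in the data. The adjusted threshold was therefore stricter than in the data, and these shares do not give the sensitivity of the real comparison. For the interaction with 1 material changed, 4% were found at 1 and 48.5% at 2.

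The named genes are the first 2 per direction by log2 fold change among genes called, with 1 direction in 6 of 6 materials, no overlap, and not listed at 0 in every library of the other tissue. Members, tests and rules were chosen with earlier results of these data known. None of the 630 pairs of the 36 libraries held identical values. Alternatives changed pseudocount, filter, scaling, limma settings, replicate block, restriction thresholds and the libraries used. Fits without the 3 root libraries that stand apart, within column numbers, and some without single libraries were added after seeing the data.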

Additional observations from a re-analysis of the deposited data

Results flagged for a closer look

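The root and leaf difference itself varied among the 6 materials for 81 genes (limma F test of the combination of tissue and material, adjusted p under 0.05), 0.195% of the genes kept, and for that reason the count is singled out. Without the libraries of 1 column number it was 3 to 25, and without single libraries 63 to 100. Genes not called may still have varied, since the test found 4% of simulated log2 changes of 1 in 1 material.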

How the results depend on the processing

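Of 824 comparisons of a result with an alternative, 774 left its direction and its side of the threshold as they were, or a count within 1.5 times. These include all 61 alternatives for each of the 4 named genes, which were chosen for large differences, and many fits that left out only 1 library. The total therefore says little of single results. Root-restricted genes moved in 7 of 14 alternatives and leaf-restricted genes in 4 of 14. Replicate spread was weaker in 2 of 6 and reversed in 2. With other scaling the counts for root and leaf were 16510 and 14993 (median ratio) and 16609 and 14784 (quantile). The column numbers were not treated as pairing root with leaf, since not every pair passed 0.1: 10 of the 18 pairs of the same material and number had a correlation of deviations over 0.1 (range -0.25 to 0.38) and 11 of 18 root libraries correlated best with their own number, a hint from the data only. With the replicate block 15469 genes were higher in root and 15741 in leaf, and with a block within tissue 15734 and 16063.

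With the exact sign-flip test over 6 materials, whose smallest p is 0.03125, the 5 called measures gave that p and an adjusted p = 0.05, no longer under the threshold (differences of 1642, 238, -13.3, -2.34 and -4.05). This test also takes the materials as independent of each other. Without each column number in turn, the root minus leaf difference was -180 to 1109 genes at 1 FPKM, -1.87 to 1.85 percentage points for the 1000 most abundant genes (adjusted p = 0.0202 at the upper end), -17.6 to -7.25 genes at 1000 FPKM, -311 to 73.1 genes to 50% of the sum and -0.00729 to 0.156 for replicate spread. The share of the 1000 most abundant genes was 0.102 higher in root without Basma and 0.777 higher without the 3 root libraries that stand apart, where genes to 50% fell by 206 and spread was -0.0242. Spread over genes of at least 10 FPKM was 0.0386 (exact p = 0.156).

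Root-restricted and leaf-restricted genes numbered 36 and 49 when listed at 0 in the other tissue, 381 and 477 at under 0.5 FPKM there, 31 and 34 at 5 FPKM or more in the own tissue, 688 and 430 in 15 of 18 libraries, and 173 to 262 and 152 to 190 without a column number. Without GDH88 201 genes were root-restricted. Pseudocounts of 0.1 and 0.01 gave 7404 and 7771 genes over 2-fold higher in root (6517 and 6793 in leaf, below root where the main count was above it), and 5593 and 5350 genes within the small interval, which held 21622 with no filter and 2024, 2259 and 3168 in the column numbers alone. Genes that varied among materials numbered 48 at a pseudocount of 0.01, 134 with no filter, 21 with the stricter filter, 3 to 100 over the libraries or numbers left out, and 32, 53 and 44 without Hongda, HxB or GDH88. Genes with no overlap numbered 8281 to 10897 without a number and 14554, 15832 and 14556 in each alone, since fewer libraries overlap less. In number 1 alone 8581 genes were higher in leaf, and in number 2 alone 9553 higher in root.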
